A study of Homo sapiens with 8 samples.

Results

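The members described here are the nuclear genes whose symbols begin with MRPL or MRPS followed by a digit, the names given to the proteins of the large and the small subunit of the mitochondrial ribosome. All 78 such symbols of the 15597 genes listed in every library were kept, 49 named MRPL and 29 named MRPS, whatever their values. In published structures of the human mitochondrial ribosome, 51 of these proteins lie in the large subunit, MRPS18A and MRPS30 among them in spite of their names, and 26 lie in the small subunit. The remaining 1, MRPS36, carries the name but is a component of the 2-oxoglutarate dehydrogenase complex. RNA was measured in SUDHL-4 cells, an established line of human diffuse large B-cell lymphoma (DLBCL), and each of the 4 groups held 2 libraries. The groups were control cells, whose genotype is labelled WT, and cells labelled as overexpressing FDX1 (FDX1-OE), each treated for 48 h with either the solvent DMSO or 5 nM of the copper ionophore elesclomol (ES). The series title asks how FDX1 overexpression changes gene expression under elesclomol. The labels do not give the vector, the promoter that drives FDX1 or whether the lines are clones, and they do not say that the libraries of a group came from separate cultures. The p-values therefore measure the spread between these libraries, which may be technical.

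The mitochondrial ribosome, or mitoribosome, makes the few proteins that mitochondrial DNA encodes, which are core subunits of the respiratory chain and of ATP synthase. Its RNAs are transcribed in the organelle, while its proteins are encoded in the nucleus, translated in the cytosol and imported. Many of these proteins descend from the bacterial ribosome, and others, here called mitochondria-specific, were added during the evolution of the organelle. B-cell lymphomas differ in how much they rely on respiration. FDX1, a mitochondrial ferredoxin, passes electrons to enzymes of the organelle and is needed for the toxicity of copper carried by elesclomol.

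The deposited values are FPKM, fragments scaled by gene length and by library total, so that levels can be compared between genes. Library totals recovered from these values lay between 33435438 and 35883528 reads. FDX1 was higher in FDX1-OE than in control cells, at 72.4 and 69.9 against 25.6 and 22.2 FPKM with DMSO and at 82.5 and 84.8 against 21.3 and 21.4 FPKM with ES. All 10 markers of B and germinal-centre cells lay between 8.71 and 909.9 FPKM in every library. Of 15 listed markers of T, NK, myeloid, epithelial and stromal cells, 14 were below 1 FPKM in every library, and CD3E, a T-cell marker, lay between 3.91 and 8.32 FPKM. In such bulk samples a smaller share of cells and less RNA per cell cannot be told apart.

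Promoter sequence was taken from RefSeq (build GRCh38.p14) for 69 of the 78 members, as the 250 bases before and the 50 bases after the annotated start. The word CCGGAAG, a binding motif of ETS factors such as GABP, was present on either strand in 29 of the 69 windows (42.0%), against 22.3% of windows of all tested genes and 16.8% of those of all listed genes. The YY1 word AAGATGG was present in 23 of them (33.3%), against 8.79% of tested and 7.00% of listed genes. The NRF1 word GCATGCG was present in 7 (10.1%, against 7.18% and 5.81%), and the MYC-MAX E-box CACGTG in 6 (8.70%, against 10.8% and 9.48%). All 4 words were searched on both strands, the E-box reads the same on both, and the forward and reverse NRF1 words can overlap each other. The YY1 and NRF1 words were shortened to these cores after longer forms had been searched and their shares seen. With the longer forms the share of members was again above that of tested genes for YY1 but was below it for NRF1, so no direction is read for NRF1. A match is a description of the sequence and not of binding. Among members whose mRNA fell with ES in both genotypes, as described further on, the ETS word was in 9 of 17 windows (52.9%), and among those that rose in both it was in 3 of 7 (42.9%). The remaining tested members with a window had it in 17 of 44 (38.6%). MRPS24, whose level was too low to be tested, is left out of these groups and has a YY1 word alone. The YY1 word was in 4 of 17 (23.5%), 3 of 7 (42.9%) and 15 of 44 (34.1%) of the same windows. Both words were thus found among rising and falling members alike.

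The 150 bases before the start of 3 falling and 3 rising members show how these words lie, in capitals, in promoters of members that moved in opposite directions. Each sequence runs from 5′ to 3′ on the strand of its gene. The windows of the falling members are MRPS34 (chr16:1773135-1773284, minus strand), MRPL36 (chr5:1799838-1799987, minus strand) and MRPL4 (chr19:10251801-10251950, plus strand). Those of the rising members are MRPS10 (chr6:42217862-42218011, minus strand), MRPL53 (chr2:74472681-74472830, minus strand) and MRPS11 (chr15:88467558-88467707, plus strand).
MRPS34: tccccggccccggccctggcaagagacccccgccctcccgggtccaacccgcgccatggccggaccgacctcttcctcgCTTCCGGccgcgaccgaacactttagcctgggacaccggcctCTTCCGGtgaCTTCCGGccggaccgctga
MRPL36: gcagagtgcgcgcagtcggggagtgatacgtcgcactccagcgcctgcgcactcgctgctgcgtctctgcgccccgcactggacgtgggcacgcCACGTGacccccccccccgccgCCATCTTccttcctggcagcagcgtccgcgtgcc
MRPL4: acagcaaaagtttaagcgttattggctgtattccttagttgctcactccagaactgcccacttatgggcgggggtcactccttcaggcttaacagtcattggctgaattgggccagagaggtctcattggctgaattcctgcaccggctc
MRPS10: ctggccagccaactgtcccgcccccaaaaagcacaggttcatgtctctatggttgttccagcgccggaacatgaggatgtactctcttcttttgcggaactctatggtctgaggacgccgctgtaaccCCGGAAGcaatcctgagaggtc
MRPL53: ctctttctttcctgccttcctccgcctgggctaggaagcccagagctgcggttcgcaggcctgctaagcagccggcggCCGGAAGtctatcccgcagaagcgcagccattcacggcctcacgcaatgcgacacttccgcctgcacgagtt
MRPS11: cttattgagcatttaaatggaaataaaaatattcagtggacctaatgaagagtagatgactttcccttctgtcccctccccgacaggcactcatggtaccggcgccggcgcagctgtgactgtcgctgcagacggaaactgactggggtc
MRPS34 carries 3 ETS words, all in the reverse orientation (CTTCCGG). MRPL36 carries an E-box and a reversed YY1 word (CCATCTT). MRPS10 and MRPL53 carry 1 forward ETS word each in the stretch shown. The stretches of MRPL4 and MRPS11 hold none of the 4 words, although MRPL4 fell and MRPS11 rose.

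The members were expressed well above the typical gene. Their median level over the 8 libraries was 38.5 FPKM, against 11.4 FPKM for all 9805 genes tested (at least 1 FPKM in at least 2 libraries), and their quartiles were 19.6 and 60.4 FPKM. Of the 77 tested members, 65 had a mean level from 10 to 100 FPKM, 7 lay above 100 FPKM and 5 below 10 FPKM. MRPL4, a protein of the peptide exit tunnel, was the highest, at 271 and 276 FPKM in control cells with DMSO, 199.99 and 214 in control cells with ES, 270.2 and 268 in FDX1-OE cells with DMSO and 169 and 174 in FDX1-OE cells with ES. MRPS34, a mitochondria-specific protein of the small subunit, followed at 228 and 231 FPKM in control cells with DMSO, 181 and 185 in control cells with ES, 233 and 226 in FDX1-OE cells with DMSO and 162 and 151 in FDX1-OE cells with ES. MRPL51, a mitochondria-specific protein of the large subunit, was next at 213 and 178 FPKM in control cells with DMSO, 167 and 177 in control cells with ES, 192 and 185 in FDX1-OE cells with DMSO and 153 and 155 in FDX1-OE cells with ES. The DMSO libraries of these 3 genes lay above their ES libraries in either genotype, although the nearest control libraries of MRPL51 almost touched.

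At the low end of the tested members stood MRPL42, at 6.60 and 5.94 FPKM in control cells with DMSO, 7.23 and 7.67 in control cells with ES, 5.94 and 6.07 in FDX1-OE cells with DMSO and 6.71 and 7.66 in FDX1-OE cells with ES. MRPL50 lay at 5.24 and 5.88 FPKM in control cells with DMSO, 5.89 and 5.66 in control cells with ES, 5.62 and 6.16 in FDX1-OE cells with DMSO and 5.15 and 5.01 in FDX1-OE cells with ES. MRPS28, the relative of bacterial protein S1, was the lowest, at 6.49 and 5.72 FPKM in control cells with DMSO, 4.91 and 3.41 in control cells with ES, 5.01 and 5.89 in FDX1-OE cells with DMSO and 3.88 and 3.96 in FDX1-OE cells with ES. The highest mean level was 46.9 times the lowest, although the proteins of a finished mitoribosome are present in comparable numbers. FPKM divides by the gene length the authors used, which differs between members, so this range belongs to the lengths as well as to the reads. MRPS24 was the single member below the filter, at 0 to 0.135 FPKM, or 0 to 3 reads. In GENCODE 29 it shares 23.2% of its exonic bases with a read-through gene, URGCP-MRPS24, and how the authors' annotation treats that locus is not given.

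The 2 libraries of a group differed, for the median member, by a ratio of 1.06 in every group except FDX1-OE cells with ES, where it was 1.07. Some members differed more. In control cells with ES the largest ratio was 1.44, for MRPS28. MRPL23, a protein at the tunnel exit, had the largest ratio in each of the other groups. It stood at 7.19 and 14.03 FPKM in control cells with DMSO, 5.87 and 6.41 in control cells with ES, 9.44 and 12.3 in FDX1-OE cells with DMSO and 11.2 and 6.19 in FDX1-OE cells with ES, a 1.95-fold difference between libraries of the same group in control cells with DMSO. Summed over all 78 members, the mRNAs came to 4206 ± 143 FPKM (SD, n = 2) in control cells with DMSO, 1.08% of all FPKM. FDX1-OE cells with DMSO gave a sum of 4132 ± 2.17 FPKM (SD, n = 2), or 1.07%. Control cells with ES gave 3911 ± 25.8 FPKM (SD, n = 2), or 1.01%. FDX1-OE cells with ES gave 3594 ± 92.3 FPKM (SD, n = 2), or 0.931%. Every ES library had a lower sum than every DMSO library, and the FDX1-OE libraries with ES were the lowest. The large-subunit mRNAs made up 3019, 2948, 2799 and 2570 FPKM of these sums, in the order control DMSO, FDX1-OE DMSO, control ES and FDX1-OE ES, and the small-subunit mRNAs 1170, 1169, 1101 and 1014 FPKM.

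**Figure D1:**
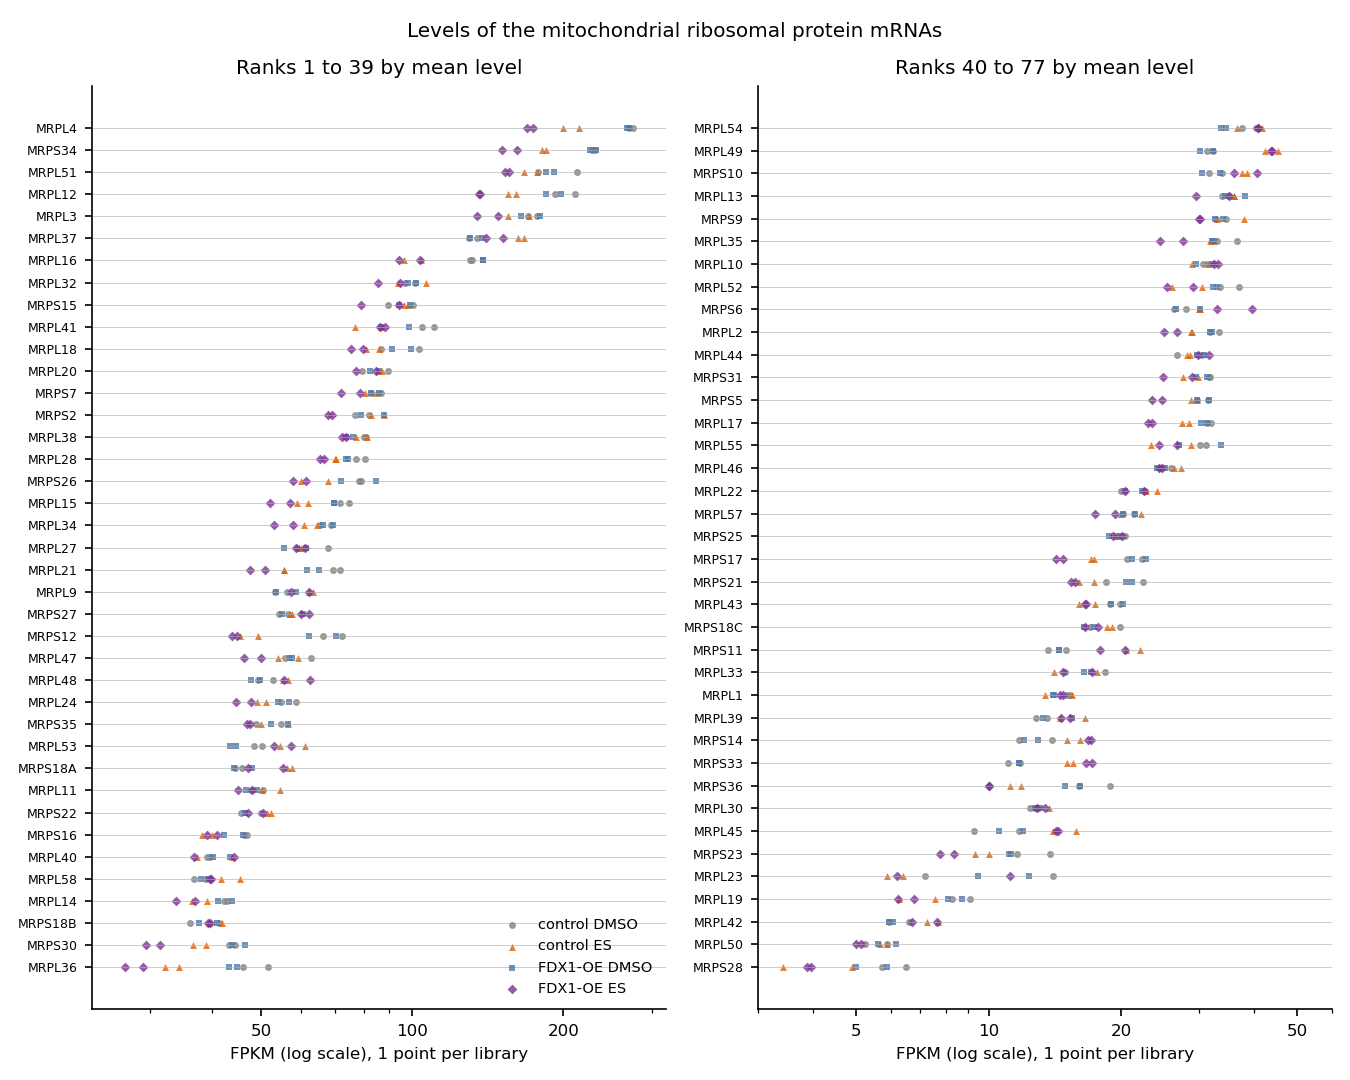
Level of each of the 77 tested members in FPKM (log axis), with 1 point per library and the 4 groups by colour and shape; members are ordered by mean level, from MRPL4 at the top left to MRPS28 at the bottom right. The groups lie close together for most members, and MRPL23 shows the widest spread between libraries of a group.

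The first comparison asks what elesclomol did to these mRNAs in control cells. Of the 77 tested members, 24 fell and 11 rose at an adjusted p under 0.05 (limma on log2(FPKM + 1), Benjamini-Hochberg adjustment over all tested genes). Among all tested genes 12.9% fell and 25.5% rose. The median log2 change was -0.04 for the members and 0.06 for all tested genes, and 54 of the 77 members lay below the median gene. Dividing the libraries by relative log expression (RLE) factors gave 31 members that fell and 6 that rose, against 21.7% and 17.2% of all genes. These factors are median ratios over genes above 0 in every library, and with them the median tested gene stood at -0.01 rather than 0.06. All changes were below 2-fold. From here on, a change given as times is the ratio of FPKM + 1. It lies nearer to 1 than the ratio of FPKM, most of all at low levels.

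Proteins with a bacterial counterpart in the large subunit made up 11 of the falls and 1 of the rises among their 30 members. MRPL36, a small zinc-binding protein, had 51.5 and 46.02 FPKM with DMSO and 32.1 and 34.3 FPKM with ES. Its ES libraries lay below both DMSO libraries, and it fell to 0.688 times (log2 change -0.54, SE 0.07, adjusted p = 0.000284). MRPL4 fell to 0.759 times (log2 change -0.40, SE 0.05, adjusted p = 0.000238), with the library values given above. MRPL16, which contacts tRNA near the catalytic centre, had 132 and 130.1 FPKM with DMSO and 96.2 and 104 FPKM with ES, and its groups did not overlap. It fell to 0.767 times (log2 change -0.38, SE 0.06, adjusted p = 0.000797). MRPL12, the stalk protein that recruits translation factors, had 211 and 193 FPKM with DMSO and 161 and 155 FPKM with ES and fell to 0.783 times (adjusted p = 0.00104). In GENCODE 29 MRPL12 shares 68.2% of its exonic bases with the locus AC139530.2, so its reads may not be its alone. MRPL21 fell to 0.789 times (adjusted p = 0.00101). The single rise of this class was MRPL9, a protein at the base of the L1 stalk, at 1.15 times (adjusted p = 0.0289), a call that ended with RLE scaling.

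The 21 mitochondria-specific proteins of the large subunit counted 4 falls and 6 rises, with a median log2 change of 0.05. With RLE scaling these were 5 falls, 4 rises and a median of -0.03, so no direction is given for the class. MRPL41 had 110.4 and 104 FPKM with DMSO and 86.4 and 77.1 FPKM with ES, with no overlap, and fell to 0.763 times (log2 change -0.39, SE 0.07, adjusted p = 0.00215). MRPL45, which anchors the mitoribosome to the inner membrane at the tunnel exit, had 11.7 and 9.28 FPKM with DMSO and 14.01 and 15.8 FPKM with ES. Its ES values were the higher ones, and it rose 1.39 times (log2 change 0.47, SE 0.10, adjusted p = 0.00459). MRPL49 had 32.3 and 31.3 FPKM with DMSO and 45.2 and 42.2 FPKM with ES and rose 1.36 times (log2 change 0.45, SE 0.06, adjusted p = 0.000325), again without overlap. MRPL37 rose 1.25 times (adjusted p = 0.00143) from one of the higher levels of the set, 135 and 129 FPKM with DMSO and 163 and 167 FPKM with ES. MRPS18A, the S18 relative placed in the large subunit, rose 1.26 times (adjusted p = 0.00616), and in GENCODE 29 it shares 47.0% of its exonic bases with RSPH9 on the opposite strand. MRPL53 rose 1.17 times (adjusted p = 0.0222), a call lost with RLE scaling, and shares 45.2% of its exonic bases with CCDC142. MRPL58, a peptidyl-tRNA hydrolase that also rescues stalled mitoribosomes, rose 1.15 times (adjusted p = 0.023) and likewise lost its call with RLE scaling.

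In the small subunit, 5 of the 15 tested proteins with a bacterial counterpart fell and 3 rose, and with RLE scaling 5 fell and 1 rose, while the median log2 change turned from 0.03 to -0.05. MRPS12, the decoding-site protein in which bacterial mutations give streptomycin resistance, had 72.3 and 66.5 FPKM with DMSO and 49.3 and 45.3 FPKM with ES. These values did not overlap, and it fell to 0.687 times (log2 change -0.54, SE 0.07, adjusted p = 0.000351). MRPS28 fell to 0.72 times (log2 change -0.47, SE 0.13, adjusted p = 0.0136), a call that was not made on recovered reads or without the filter on low values. MRPS11, a platform protein, had 13.7 and 15.01 FPKM with DMSO and 20.5 and 21.99 FPKM with ES and showed the largest rise of all members, 1.45 times (log2 change 0.54, SE 0.08, adjusted p = 0.000493). MRPS14 rose 1.20 times (adjusted p = 0.0244) and MRPS10 1.16 times (adjusted p = 0.0381), and both calls ended with RLE scaling. Of the 10 mitochondria-specific small-subunit proteins, 3 fell and 1 rose. MRPS23 fell to 0.783 times (adjusted p = 0.00746). MRPS33 had 11.8 and 11.05 FPKM with DMSO and 15.04 and 15.5 FPKM with ES, with the ES libraries higher, and rose 1.31 times (log2 change 0.39, SE 0.06, adjusted p = 0.000849). MRPS36, the dehydrogenase component outside the mitoribosome, had 18.8 and 16.1 FPKM with DMSO and 11.8 and 11.2 FPKM with ES and fell to 0.681 times (log2 change -0.56, SE 0.08, adjusted p = 0.00051).

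The counts in control cells rest on single libraries: the falls came to 14 when control DMSO replicate 1 was omitted and to 15 when control ES replicate 2 was, and the rises to 6 when either control DMSO replicate 2 or control ES replicate 1 was, and to 7 without the filter on low values. Under every alternative 12 of the 24 falls and 6 of the 11 rises were called. Of the members named above, those that lost their call when at least 1 library was omitted did so with an adjusted p of up to 0.0998 for MRPS28, 0.0671 for MRPS23, 0.156 for MRPL9, 0.165 for MRPL53, 0.156 for MRPL58, 0.19 for MRPS14 and 0.195 for MRPS10.

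In FDX1-OE cells the same treatment lowered 33 of the 77 members and raised 11. Among all tested genes 19.2% fell and 37% rose in this comparison, and the median log2 change was -0.16 for the members and 0.09 for all genes. Below the median gene lay 64 of the 77 members. With RLE scaling 46 members fell and 5 rose, against 31.8% and 24.1% of all genes. That scaling moved the median gene from 0.09 to -0.03 and the median member from -0.16 to -0.30, so the distance between them was -0.26 before and -0.27 after it.

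Among the bacterial-type proteins of the large subunit 17 of 30 fell and none rose, and this class had the lowest median log2 change of the 4 classes, -0.26. MRPL4 had 270.2 and 268 FPKM with DMSO and 169 and 174 FPKM with ES. Both ES values lay far below both DMSO values, and MRPL4 fell to 0.638 times (log2 change -0.65, SE 0.05, adjusted p = 3.16e-06). On the scale of log2(FPKM + 1) this was the largest change of any member with ES. MRPL36 had 43.1 and 44.8 FPKM with DMSO and 29.03 and 26.8 FPKM with ES, without overlap, and fell to 0.642 times (log2 change -0.64, SE 0.07, adjusted p = 3.01e-05). MRPL12 had 198 and 185 FPKM with DMSO and 136 and 136 FPKM with ES and fell to 0.713 times (adjusted p = 5.31e-05). MRPL16 had 138 and 139 FPKM with DMSO and 94.04 and 103 FPKM with ES and fell to 0.714 times (adjusted p = 6.68e-05). The DMSO libraries were the higher ones in each of these genes.

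The mitochondria-specific proteins of the large subunit again counted 4 falls and 6 rises among 21, with a median log2 change of 0.03. With RLE scaling the class had 8 falls and 2 rises and a median of -0.12, so no direction is given for it. MRPS30, which lies in the large subunit, had 46.5 and 43.8 FPKM with DMSO and 29.5 and 31.5 FPKM with ES. The ES values were the lower ones, and it fell to 0.683 times (log2 change -0.55, SE 0.06, adjusted p = 3.12e-05). MRPL51 fell to 0.82 times (adjusted p = 0.00734). In GENCODE 29 it shares 31.3% of its exonic bases with NCAPD2 on the opposite strand, which rose in these cells (log2 change 0.21). MRPL49 had 30.1 and 32.2 FPKM with DMSO and 43.9 and 43.6 FPKM with ES and rose 1.39 times (log2 change 0.48, SE 0.06, adjusted p = 6.85e-05). MRPL53 rose 1.25 times (adjusted p = 0.00181). Of the other rises in the class, MRPL45 (1.25 times, adjusted p = 0.019), MRPL48 (1.21 times, adjusted p = 0.00531), MRPL54 (1.19 times, adjusted p = 0.00879) and MRPL42 (1.17 times, adjusted p = 0.0359) lost their calls with RLE scaling.

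Small-subunit proteins with a bacterial counterpart counted 7 falls and 4 rises among 15. MRPS12 had 70.5 and 62.2 FPKM with DMSO and 44.7 and 43.7 FPKM with ES and fell to 0.673 times (log2 change -0.57, SE 0.07, adjusted p = 8.20e-05). MRPS17, which binds the rRNA early in assembly, had 21.1 and 22.8 FPKM with DMSO and 14.7 and 14.2 FPKM with ES, with no overlap, and fell to 0.675 times (log2 change -0.57, SE 0.06, adjusted p = 4.03e-05). It shares 27.0% of its exonic bases with 2 other loci in GENCODE 29. MRPS14 rose 1.33 times (adjusted p = 0.00141) and MRPS11 1.305 times (adjusted p = 0.00147), the latter with 14.4 and 14.4 FPKM with DMSO and 17.9 and 20.4 FPKM with ES. MRPS6 (1.27 times, adjusted p = 0.00642) and MRPS10 (1.19 times, adjusted p = 0.0121) rose too, but not with RLE scaling. Of the 10 mitochondria-specific proteins of the small subunit 4 fell and 1 rose. MRPS34 had 233 and 226 FPKM with DMSO and 162 and 151 FPKM with ES, with the ES values lower in both libraries, and fell to 0.683 times (log2 change -0.55, SE 0.05, adjusted p = 1.01e-05). MRPS23 fell to 0.742 times (adjusted p = 0.00131). MRPS33 had 11.7 and 11.7 FPKM with DMSO and 16.7 and 17.2 FPKM with ES and rose 1.41 times (log2 change 0.49, SE 0.06, adjusted p = 7.32e-05), the largest rise in FDX1-OE cells. MRPS36 had 14.9 and 16.1 FPKM with DMSO and 10.04 and 10.03 FPKM with ES and fell to 0.669 times (log2 change -0.58, SE 0.08, adjusted p = 0.000131). Under every alternative 22 of the 33 falls and 5 of the 11 rises were called, and without FDX1-OE ES replicate 2 the rises came to 6. With at least 1 library omitted the rises of MRPL45, MRPL48, MRPL42, MRPS6 and MRPS10 lost their calls, with adjusted p of up to 0.128, 0.0519, 0.243, 0.0619 and 0.109.

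**Figure D2:**
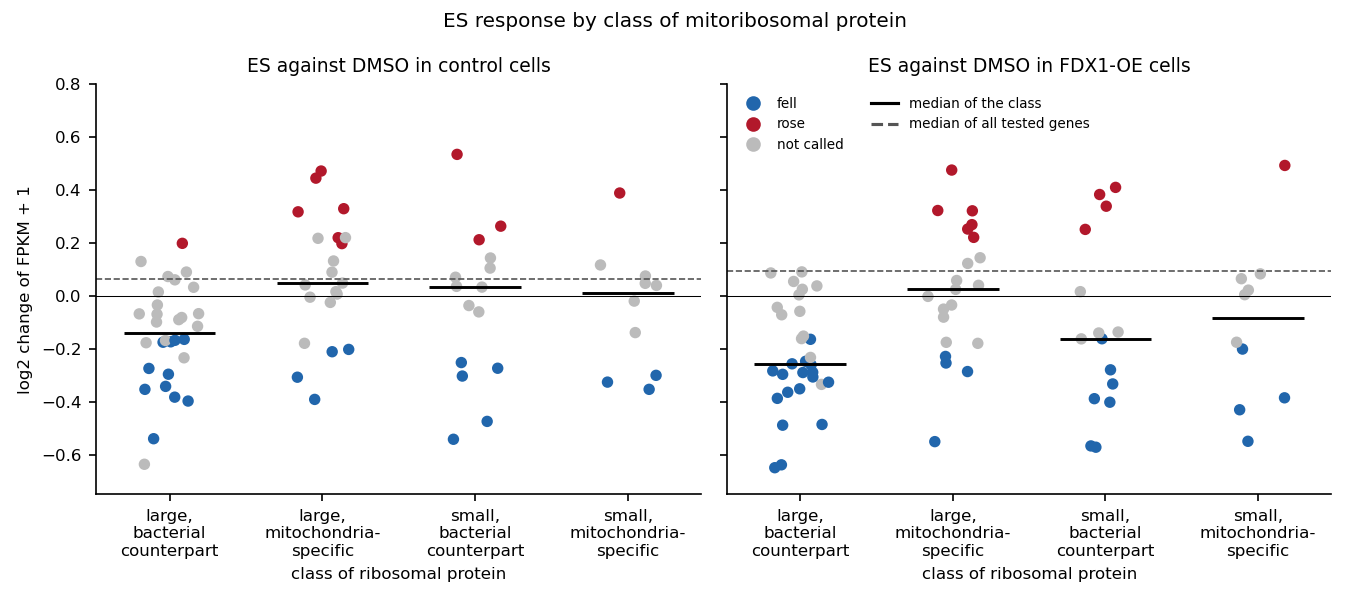
Log2 change of FPKM + 1 with ES in control cells (left) and FDX1-OE cells (right) for each member, by subunit and by whether the protein has a bacterial counterpart; blue points fell, red points rose, grey points were not called, black bars are class medians and the dashed line is the median of all tested genes. The large-subunit proteins with a bacterial counterpart have the lowest median in both panels, and MRPS36 is not shown.

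Counted over both subunits, the 45 tested proteins with a bacterial counterpart gave 16 falls and 4 rises in control cells and 24 falls and 4 rises in FDX1-OE cells. The 31 mitochondria-specific proteins gave 7 falls and 7 rises, and 8 falls and 7 rises. With RLE scaling these became 21 falls and 1 rise and 32 falls and 2 rises for the first class, and 9 falls and 5 rises and 13 falls and 3 rises for the other. Among all tested genes 12.9% fell and 25.5% rose in control cells, and 19.2% fell and 37% rose in FDX1-OE cells. With RLE scaling these shares were 21.7% and 17.2%, and 31.8% and 24.1%. In control cells the contrast between these classes lay mostly in the large subunit (11 falls and 1 rise against 4 and 6). In the small subunit 5 of 15 proteins with a bacterial counterpart fell and 3 rose, against 3 and 1 of 10 mitochondria-specific ones. With RLE scaling these were 5 and 1 against 4 and 1. In FDX1-OE cells the small subunit gave 7 falls and 4 rises against 4 and 1. With RLE scaling it gave 10 and 2 against 5 and 1. The difference between the classes was not tested. For comparison with the cytosolic ribosome, 82 tested cytosolic ribosomal protein genes counted 21 falls and 5 rises in control cells but 7 falls and 32 rises in FDX1-OE cells. RLE scaling turned the latter into 15 falls and 6 rises, so no direction is given for that group in FDX1-OE cells. In control cells it gave 40 falls (48.8%) and 3 rises, so there falls outnumbered rises under both scalings, as they did among the members. Genes with names of respiratory complex I subunits (NDUFA, NDUFB, NDUFC, NDUFS or NDUFV and a digit) were taken by name alone. The mitoribosome makes many partners of these subunits. The 38 genes counted 12 falls and 2 rises in control cells and 7 falls and 6 rises in FDX1-OE cells. With RLE scaling these were 17 falls and 1 rise, and 16 falls and 2 rises. Without that scaling 18.4% of these genes fell in FDX1-OE cells, near the 19.2% of all tested genes, and 15.8% rose, against 37%.

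Set side by side, 22 members fell and 7 rose in both genotypes, 2 fell in control cells alone and 11 in FDX1-OE cells alone by their calls, 4 rose in control cells alone and 4 in FDX1-OE cells alone, and no member had opposite calls. Among all tested genes 10.3% fell and 21.5% rose in both, 2.64% fell in control cells alone and 8.85% in FDX1-OE cells alone, and 4.01% and 15.6% rose so. With RLE scaling 31 members fell and 3 rose in both, against 18.6% and 13.7% of all genes. In control cells alone none then fell and 3 rose, against 3.11% and 3.54% of all genes, and in FDX1-OE cells alone 15 fell and 2 rose, against 13.2% and 10.4%. Of the first-named calls, 10 falls and 3 rises were made in both genotypes under every alternative setting tried, including the omission of each library in turn. The falls were those of MRPL4, MRPL12, MRPL15, MRPL16, MRPL21, MRPL36, MRPS12, MRPS17, MRPS34 and MRPS36, and the rises those of MRPL49, MRPS11 and MRPS33. Across the 77 members the changes in the 2 genotypes, which share no library, had a Pearson r of 0.86, close to the 0.84 across all 9805 genes. Genes are not independent replicates, and no p is given. Without regard to calls, the ES libraries lay below the DMSO libraries with no overlap in both genotypes for 30 of the 77 members and above them for 13, against 19.4% and 37.3% of all tested genes. Neither the mean level of a member nor its length went closely with its change: r with the level was -0.10 in control and -0.21 in FDX1-OE cells, and r with the length was 0.18 and 0.11.

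**Figure D3:**
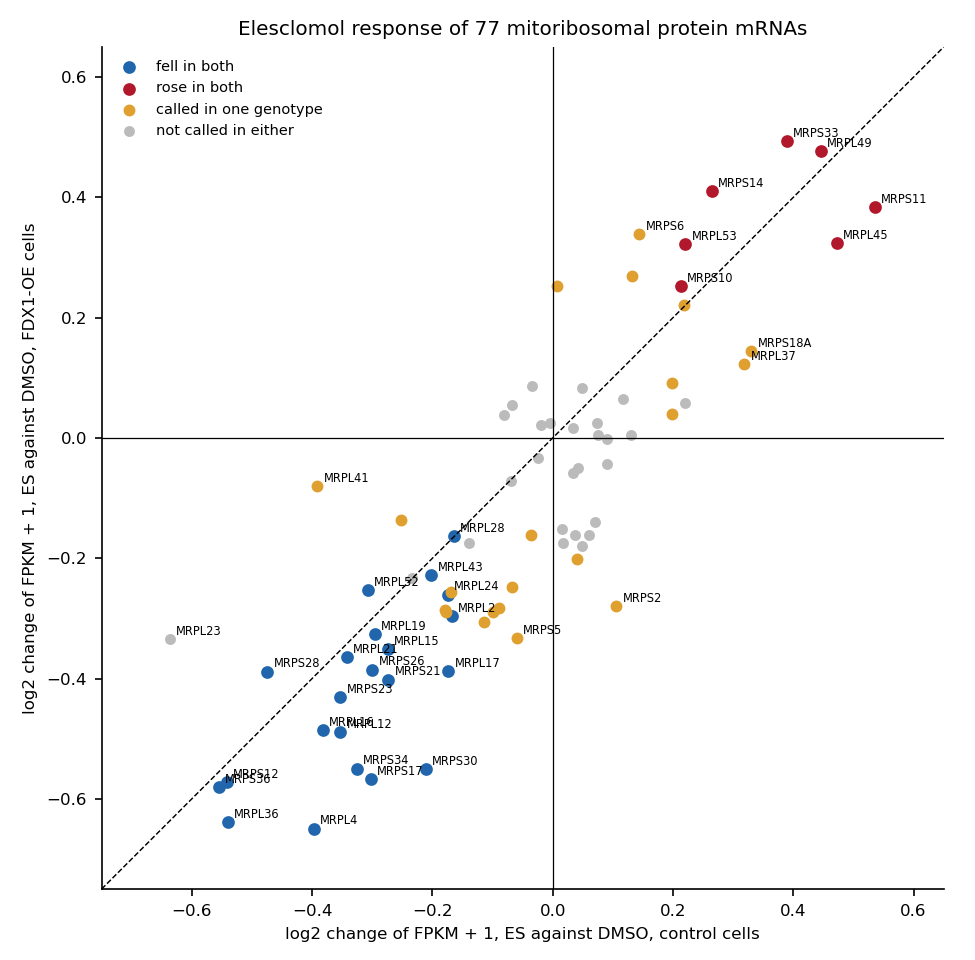
Log2 change of FPKM + 1 with ES in control cells (horizontal) against that in FDX1-OE cells (vertical) for the 77 tested members, coloured by call; the dashed line marks equal change. The 22 members that fell in both genotypes lie at the lower left, many of them below the line, and the 7 that rose in both lie at the upper right.

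**Figure D4:**
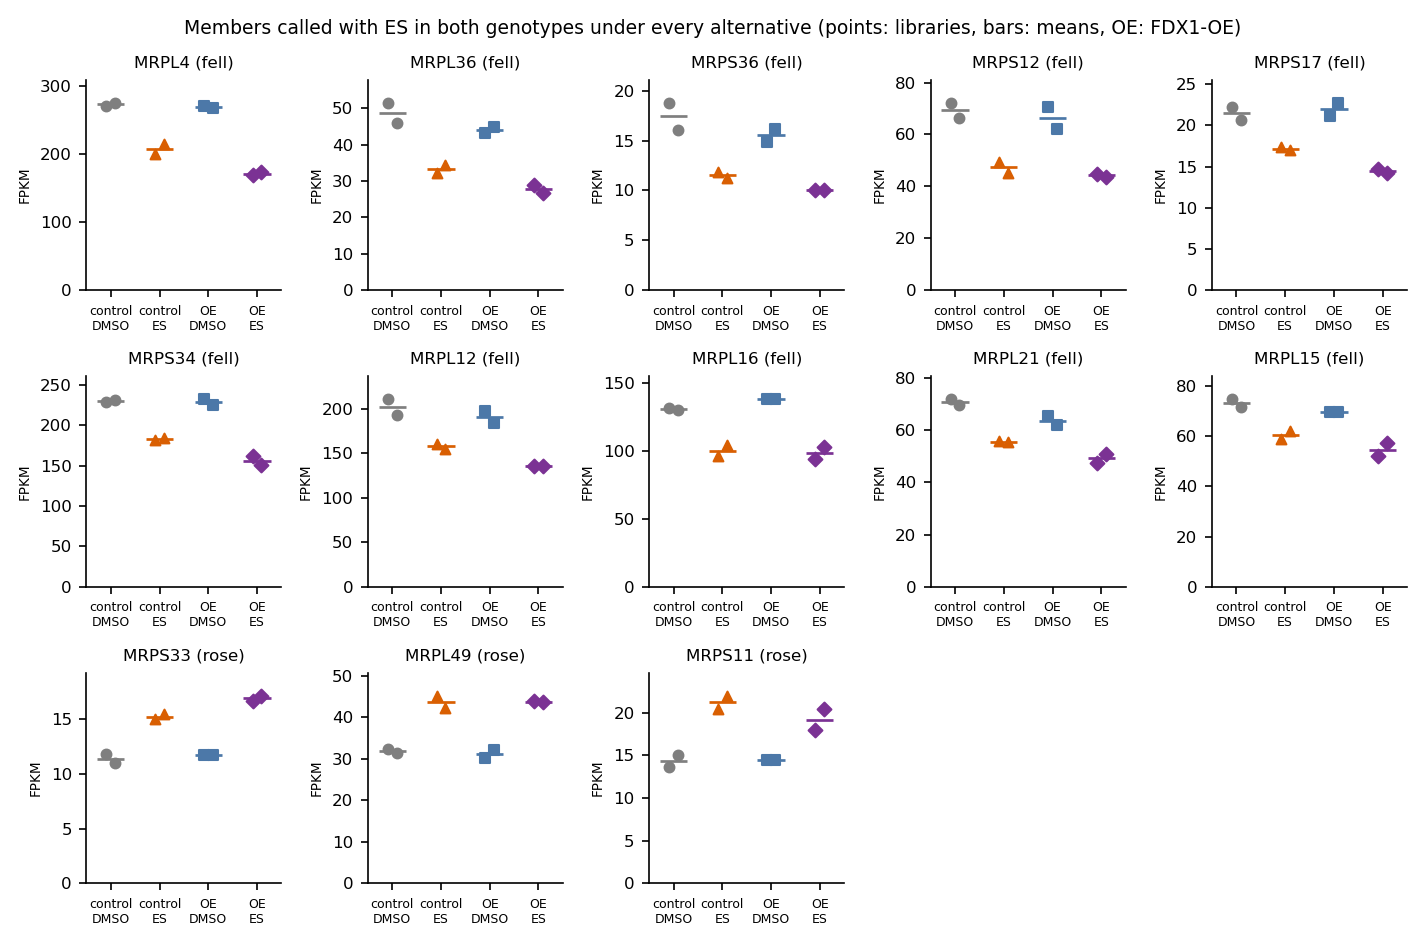
FPKM in each library (points) with the group mean (bar) for the 10 members that fell and the 3 that rose with ES in both genotypes under every alternative; each axis starts at 0. The members were chosen by their calls, and in all 13 panels the ES libraries of a genotype do not overlap its DMSO libraries.

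Members of 1 structural region were not all called alike, although a missing call does not show another direction. Of the stalk proteins, MRPL12 fell in both genotypes, while MRPL10 (log2 change -0.03 and 0.09 in control and FDX1-OE cells) and MRPL11 (0.09 and -0.04) were not called in either. Around the tunnel exit, MRPL24 fell in both (0.886 and 0.835 times) and MRPL45 rose in both, although its FDX1-OE call was lost with RLE scaling. MRPL47 fell in FDX1-OE cells alone (0.843 times, adjusted p = 0.0119), and MRPL22 was not called (0.13 and 0.00). MRPL23 was not called either (-0.64 and -0.33), given its spread between libraries. The control call of MRPL24 was lost in 5 of the 8 fits that left out 1 library (adjusted p of up to 0.223), and the FDX1-OE calls of MRPL45, MRPL47 and MRPL18 in 3, 2 and 2 of them (up to 0.128, 0.0857 and 0.0804). In the central protuberance MRPL38, MRPL40 and MRPL46 were not called, with log2 changes between -0.05 and 0.09. MRPL48 rose in FDX1-OE cells, a call lost with RLE scaling. MRPL18, a protein of the same region, was called in FDX1-OE cells (0.818 times, adjusted p = 0.0102), and MRPL44, a protein with a ribonuclease III fold, in neither (-0.00 and 0.03). Of the 3 S18 relatives, MRPS18A rose in control cells, while MRPS18B (0.08 and 0.01) and MRPS18C (0.03 and 0.02) were not called.

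Overexpression of FDX1 by itself was compared in DMSO. None of the 77 members was called, where 0.428% of all tested genes rose and 0.0816% fell. RLE scaling called none either, with 0.511% of all genes higher and 0.0921% lower. With limma 4 members had an unadjusted p under 0.05, and with limma voom on recovered reads 3. That is about as many of 77 genes as this threshold passes when nothing has changed. The 4 were MRPL21, MRPL41, MRPL53 and MRPL54, chosen here for their values, which had log2 changes from -0.22 to -0.15 with adjusted p of at least 0.462. MRPL41 had 110.4 and 104 FPKM in control cells and 98.3 and 86.4 FPKM in FDX1-OE cells, and the values did not overlap. With 2 libraries a group such a lack of overlap is common by chance, the more so in a gene chosen for its values. MRPL4 and MRPS34 differed by -0.02 and -0.00 on the log2 scale.

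In ES, 14 members were lower in FDX1-OE than in control cells and none was higher, while 7.78% of all tested genes were lower and 13.6% higher. The median log2 change was -0.10 for the members and 0.03 for all tested genes. With RLE scaling 24 members were lower and none higher, against 13% and 9.85% of all genes. MRPS2, a small-subunit protein with a bacterial counterpart, had 82.9 and 87.98 FPKM in control cells and 69.1 and 67.8 FPKM in FDX1-OE cells in ES. All FDX1-OE values were below the control values, and it was at 0.804 times (log2 change -0.31, SE 0.06, adjusted p = 0.00686). MRPS30 had 36.5 and 38.9 FPKM in control cells and 29.5 and 31.5 FPKM in FDX1-OE cells and was at 0.814 times (log2 change -0.30, SE 0.06, adjusted p = 0.00685). MRPL35 (0.818 times, adjusted p = 0.0147), MRPL4 (0.828 times, adjusted p = 0.00407) and MRPS5, a protein of the mRNA entry site (0.83 times, adjusted p = 0.0108), came next. MRPL17 (0.839 times, adjusted p = 0.00893), MRPL36 (0.845 times, adjusted p = 0.0308), MRPS17 (0.85 times, adjusted p = 0.0265), MRPL47 (0.853 times, adjusted p = 0.0411) and MRPS34 (0.855 times, adjusted p = 0.0103) were also lower. Of the set members, the stalk protein MRPL12 was lower too (0.863 times, adjusted p = 0.0248), while MRPL10, MRPL11, MRPL22, MRPL23, MRPL24, MRPL38, MRPL40, MRPL41, MRPL44, MRPL45, MRPL46, MRPL48, MRPS12 and the 3 S18 relatives were not called. The count rests on single libraries: without control ES replicate 2 it was 2, and without FDX1-OE ES replicate 1 it was 5. MRPL4 and MRPL17 alone kept their calls under every alternative, and without the filter on low values 7 members were lower.

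**Figure D5:**
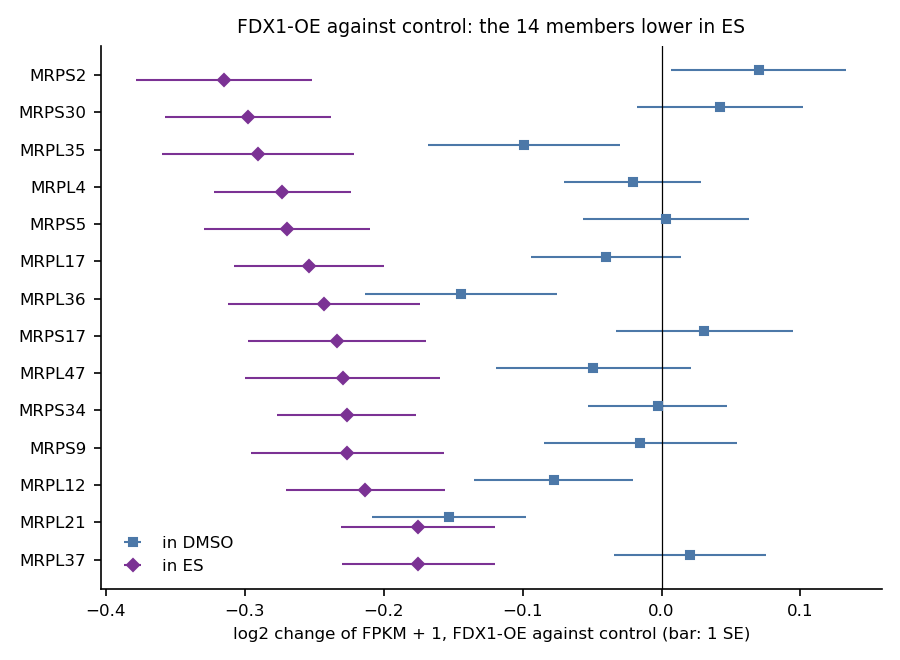
Log2 change of FPKM + 1 in FDX1-OE against control cells for the 14 members that were lower in ES, with DMSO values as squares and ES values as diamonds; bars are 1 SE. The members were chosen by the ES comparison, in which all diamonds lie below 0, and none of the 14 was called in DMSO.

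Whether FDX1 overexpression changed the response to ES was asked by the interaction, in which the log2 change of control cells with ES is taken from that of FDX1-OE cells. It was called for 2 of 77 members, both with the lower response in FDX1-OE cells, where 1.05% of all tested genes had a lower and 3.25% a higher response. MRPS2 had 76.8 and 81.8 FPKM in control cells with DMSO, 82.9 and 87.98 in control cells with ES, 78.9 and 87.96 in FDX1-OE cells with DMSO and 69.1 and 67.8 in FDX1-OE cells with ES. Only its FDX1-OE libraries with ES stood apart, below the other 6, and the interaction was -0.38 (SE 0.09, adjusted p = 0.0412). MRPS30 fell with ES in both genotypes, by 0.21 in control cells and by 0.55 in FDX1-OE cells on the log2 scale, and its interaction was -0.34 (SE 0.08, adjusted p = 0.0498). The control fall of MRPS30 was lost in 3 fits that left out 1 library (adjusted p of up to 0.11). With a pseudocount of 0.1, or without the filter on low values, no member was called. With RLE scaling MRPL4 was called besides them, where 2.76% of all genes had a lower and 2.5% a higher response. Next in size were MRPS5 (-0.27, adjusted p = 0.0908) and MRPS17 (-0.26, adjusted p = 0.118), and MRPL4 stood at -0.25 (adjusted p = 0.0671), values that did not pass. The interaction was below 0 for 55 of the 77 members (71.4%) and for 44.8% of all tested genes, and with RLE scaling for 63 members (81.8%) and 55.1% of all genes.

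The other genes of mitochondrial translation were taken from fixed lists. Of 5 further mitoribosome proteins whose symbols lack the MRP prefix, 2 fell in control and 3 in FDX1-OE cells, and none rose. DAP3, a GTP-binding protein of the small subunit, had 74.2 and 73.6 FPKM in control cells with DMSO, 69.9 and 74.8 in control cells with ES, 76.99 and 81.5 in FDX1-OE cells with DMSO and 63.2 and 64.98 in FDX1-OE cells with ES. Its FDX1-OE libraries with ES were the lowest, and it fell to 0.811 times there (log2 change -0.30, SE 0.05, adjusted p = 0.000883), with 0.978 times in control cells not called (adjusted p = 0.673). Of 26 assembly factors 5 fell and 2 rose in control cells, and 9 fell and 8 rose in FDX1-OE cells. With RLE scaling 8 fell and 1 rose, and 11 fell and 1 rose. YBEY, an rRNA-processing endonuclease, was among the rises in FDX1-OE cells (1.32 times, adjusted p = 0.00624), from a mean of 2.85 to 4.07 FPKM. The largest falls in control cells by limma were those of DHX30 (0.764 times, adjusted p = 0.000469), MRM3 (0.821 times, adjusted p = 0.00534) and RPUSD4 (0.825 times, adjusted p = 0.00303). ERAL1 (1.19 times, adjusted p = 0.00442) and RBFA (1.15 times, adjusted p = 0.0268) rose there. The call of RBFA was lost with RLE scaling and with a control library omitted. Of 17 translation factors 4 fell and 3 rose in control cells, and 10 fell and 3 rose in FDX1-OE cells. With RLE scaling 9 fell and 2 rose, and 10 fell and 2 rose. Among all tested genes 12.9% fell and 25.5% rose in control cells and 19.2% fell and 37% rose in FDX1-OE cells, as given above.

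Among the translation factors, the largest rises in control cells were those of the initiation factors. MTIF3 had 11.1 and 10.7 FPKM in control cells with DMSO, 15.8 and 17.3 in control cells with ES, 10.3 and 11.3 in FDX1-OE cells with DMSO and 14.7 and 16.8 in FDX1-OE cells with ES. Its ES libraries were higher than its DMSO libraries in each genotype, and it rose 1.47 times in control (adjusted p = 0.000552) and 1.42 times in FDX1-OE cells (adjusted p = 0.000383). MTIF2 rose 1.31 times in control cells (adjusted p = 0.000787). GUF1, a back-translocating elongation factor, rose 1.20 times in control cells (adjusted p = 0.0287), a call lost with RLE scaling. The largest falls in control cells by limma were those of TSFM (0.803 times, adjusted p = 0.00326), C1QBP (0.854 times, adjusted p = 0.00742) and MRRF (0.868 times, adjusted p = 0.0281). The calls of C1QBP and MRRF ended with at least 1 library omitted. The elongation factor TUFM fell to 0.91 times in control (adjusted p = 0.0391) and 0.825 times in FDX1-OE cells (adjusted p = 0.000506). LRPPRC, which stabilises mitochondrial mRNAs, fell to 0.807 times in FDX1-OE cells (adjusted p = 0.00104), and 0.952 times in control cells was not called (adjusted p = 0.348). With RLE scaling the control fall was called (adjusted p = 0.0493). The mRNAs encoded in mitochondria were not analysed here.

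Of 13 tested regulators of mitochondrial biogenesis 7 fell in control cells and 8 in FDX1-OE cells, where 1 rose. Among all tested genes 12.9% fell and 25.5% rose in control cells, and 19.2% and 37% in FDX1-OE cells. RLE scaling gave 7 falls in control cells, against 21.7% of all genes. In FDX1-OE cells it gave 11 falls and 1 rise, against 31.8% and 24.1%. POLRMT, the RNA polymerase of mitochondria, had 64.7 and 68.5 FPKM in control cells with DMSO, 47.6 and 43.8 in control cells with ES, 68.2 and 64.7 in FDX1-OE cells with DMSO and 42.7 and 42.7 in FDX1-OE cells with ES. No ES library reached a DMSO library, and it fell to 0.691 times in control (adjusted p = 0.000117) and 0.648 times in FDX1-OE cells (adjusted p = 1.28e-05). ESRRA, a nuclear receptor that drives respiratory genes, fell to 0.687 times in control cells (adjusted p = 0.000747), and its coactivator PPARGC1B to 0.702 and 0.66 times in the 2 genotypes (adjusted p = 0.00122 and 0.000189). PPARGC1B was low, at a mean of 4.76 FPKM with DMSO and 3.03 with ES in control cells and 4.81 and 2.84 in FDX1-OE cells. TFAM, which packages and transcribes mitochondrial DNA, fell to 0.819 times (adjusted p = 0.00669) and 0.743 times (adjusted p = 0.000312). The transcription factor MYC had 163 and 182 FPKM in control cells with DMSO, 137 and 155 in control cells with ES, 186 and 191 in FDX1-OE cells with DMSO and 122 and 132 in FDX1-OE cells with ES. Its lowest libraries were those of FDX1-OE cells with ES, and it fell to 0.849 times in control (adjusted p = 0.0265) and 0.676 times in FDX1-OE cells (adjusted p = 9.98e-05). The rise was that of TEFM, a transcription elongation factor of mitochondria (1.35 times, adjusted p = 0.00425), from a mean of 1.90 to 2.92 FPKM in FDX1-OE cells. In control cells the calls of TUFM, MYC and TFAM ended with at least 1 library omitted (adjusted p of up to 0.182, 0.19 and 0.0579), and so did that of GUF1 (0.182) and, in FDX1-OE cells, that of YBEY (0.0618). Whether these regulators have a part in the members' changes was not tested.

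Many members share a promoter region with a neighbour on the opposite strand. In GENCODE 29, 29 members had a gene on the other strand whose start lay within 1000 bases, and for 26 of them the neighbour was tested. In control cells no member fell or rose together with its neighbour, and 2 had opposite calls. In FDX1-OE cells 2 fell with their neighbour, 1 rose with it and 5 had opposite calls. Among all tested genes 12.9% fell and 25.5% rose in control cells, and 19.2% and 37% in FDX1-OE cells. How often other pairs of genes were called alike or opposite was not counted, so nothing is read from these numbers. MRPL49 and FAU, which encodes a ubiquitin-like fusion of a cytosolic ribosomal protein, start 290 bases apart. FAU had 699 and 645 FPKM in control cells with DMSO, 540.5 and 497 in control cells with ES, 628 and 594 in FDX1-OE cells with DMSO and 537 and 543 in FDX1-OE cells with ES, and it fell in both genotypes (0.773 and 0.885 times) where MRPL49 rose, also with RLE scaling. The FDX1-OE call of FAU ended with FDX1-OE DMSO replicate 1, FDX1-OE ES replicate 1 or FDX1-OE ES replicate 2 omitted (adjusted p of up to 0.164). MRPS12 and SARS2, the mitochondrial seryl-tRNA synthetase, start 348 bases apart, and SARS2 rose 1.41 times in FDX1-OE cells (adjusted p = 0.000695) where MRPS12 fell. The members MRPS11 and MRPL46 start 34 bases apart, and MRPS11 rose in both genotypes while MRPL46 was called in neither. Each is the neighbour of the other, so this pair is among the 26 from both sides. With RLE scaling 2 pairs fell together in control and 5 in FDX1-OE cells, and none rose together. Opposite calls were then made for 2 and 5 pairs. In the 2 first-named pairs exons overlap on opposite strands (12.2% of the exonic bases of MRPL49, with FAU and SYVN1, and 16.3% of those of MRPS12), and whether the authors counted by strand is not given in the sources used here. Of all 78 members 34 share some exonic bases with another gene in GENCODE 29, 9 of them over 25%, and reads of processed pseudogenes, which many of these genes have, were not told apart.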

How the data were processed

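Per the labels, total RNA was extracted with TRIzol and libraries were made with the VAHTS Universal V6 kit. The submitters' processing notes name HTSeq, HISAT2, R 3.2.0 and the build hg19, with no role for any of them. The deposited values are FPKM made by the authors, a unit read from the values, since the file headers name none. They were whole multiples of the worth of 1 read for 100% of 15597 genes (within 0.02 read), which gave totals of 33435438 to 35883528 reads. Values of log2(FPKM + 1), a scale that understates changes of low genes, were tested with limma (3.58.1, under R 4.3.3) for the 9805 genes that reached 1 FPKM in 2 or more libraries. The fit held the 4 group means over all 8 libraries (4 residual and 6.62 prior degrees of freedom, mean trend). All 5 comparisons were two-sided with Benjamini-Hochberg adjustment over all tested genes, and calls were made at an adjusted p under 0.05.

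The members and lists were chosen with earlier results of these data known. In each comparison the text names the 10 largest rises and falls among called members, members of set structural regions, the 3 highest and lowest members and members below the filter. Of the other lists it names MYC, TFAM, POLRMT, DAP3, TUFM, LRPPRC and, in control cells, up to 3 called genes in each direction. In FDX1-OE cells fewer genes of those lists are named, and some left out, such as DHX30 and SLIRP, changed more than some named. Neighbouring genes were named by position. Subunits and classes follow published structures from general knowledge. Gene overlaps come from GENCODE 29 and promoters from RefSeq, both on GRCh38, while the authors used hg19. The alternatives were a pseudocount of 0.1, no filter, a mean of at least 5 FPKM, RLE scaling, limma voom on recovered reads, a fit of the 4 libraries compared, a replicate block and the omission of each library. The read recovery and the fit were tested on simulated data.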

Additional observations from a re-analysis of the deposited data

Results flagged for a closer look

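The response to ES differed between the genotypes for 2 members by the test of the interaction itself. For MRPS2, a small-subunit protein, the log2 change of FDX1-OE cells with ES less that of control cells was -0.38 (adjusted p = 0.0412 with limma), with a fall in FDX1-OE cells (-0.28) and 0.11, not called, in control cells. For MRPS30, a large-subunit protein, it was -0.34 (adjusted p = 0.0498). The call of MRPS2 was lost in 6 and that of MRPS30 in 7 of the 8 fits that left out 1 library, and both were lost with a pseudocount of 0.1 and without the filter. With RLE scaling both kept it, at -0.44 (adjusted p = 0.0265) and -0.39 (adjusted p = 0.0324).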

How the results depend on the processing

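The median log2 change over all 77 members stayed below 0 under every alternative in both ES comparisons, in ES between genotypes and in the interaction; in DMSO between genotypes it was -0.01 and turned to 0.01 without control DMSO replicate 1. With RLE scaling the medians of 3 of the 4 classes turned from above to below 0 in control cells (large-subunit mitochondria-specific from 0.05 to -0.03, small-subunit bacterial from 0.03 to -0.05, small-subunit mitochondria-specific from 0.01 to -0.08), and so did that of the first in FDX1-OE cells (0.03 to -0.12). With RLE scaling the rises in control cells went from 11 to 6 and those in FDX1-OE cells from 11 to 5, and the members lower in FDX1-OE than in control cells in ES went from 14 to 24. Without the filter on low values, when every gene with a read was tested, these were 7 rises in control cells and 7 members lower in ES, and no interaction was called (0, as with a pseudocount of 0.1, against 2). With a mean of at least 5 FPKM 1 member, MRPS6, was higher in FDX1-OE cells in ES. With 1 library omitted, the rises ranged from 6 to 12 in control cells and from 6 to 12 in FDX1-OE cells, the falls from 14 to 26 and from 26 to 34. In ES the members lower in FDX1-OE cells then ranged from 2 to 12 and the higher ones from 0 to 1, and the interactions called below 0 from 0 to 3. Apart from the omission of samples or the larger number of genes tested, the cause was not tested. Same-numbered libraries deviated together weakly at most (r of -0.18 to 0.181 over 6 pairs of groups). The labels name no pairing, and weak correlations cannot exclude one. With the replicate number as a block 1 member (MRPS6) was higher in FDX1-OE cells in ES, and 1 interaction was above 0 (MRPL41) and 1 below 0 (MRPS2). MRPS6 and MRPL41 were named after their values were seen. The smallest member total was 97 reads in a library, and with 2 libraries a group the spread between them limits the calls.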
